A study of Mus musculus with 30 samples.

Results

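Described here are 9 mouse genes of the transforming growth factor beta (TGF-beta) pathway, taken by name from the 55401 genes counted in each of 30 tumour libraries. They are the ligand genes Tgfb1, Tgfb2 and Tgfb3, the receptor genes Tgfbr1 and Tgfbr2, the receptor-activated SMAD genes Smad2 and Smad3, and the feedback inhibitor genes Smad7 and Skil. All 9 were found by gene identifier in each of the 3 deposited tables. Each table holds 1 population from tumours of 4T1, a mouse mammary carcinoma line. The populations are sorted 4T1 cells carrying green fluorescent protein (4T1), CD4+ T cells (CD4) and CD8+ T cells (CD8), the T cells having been taken with magnetic beads. Mice labelled wild-type received either a control IgG1 (CTRL), for which no dose is given here, or C269, an antibody that binds extracellular nicotinamide phosphoribosyltransferase (eNAMPT), at 2.5 mg/kg. Dosing was 2 times a week for 1 month, and each of the 6 groups has 5 libraries. The strain, age and sex of the mice are not in the labels. By its title the series asks whether neutralising eNAMPT changes the T cell response in breast cancer. Whether the 5 libraries of a group come from 5 animals is not in the labels. The p-values therefore speak of the spread among libraries, which may be technical.

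TGF-beta is secreted in a latent complex and, once released, binds TGFBR2, which recruits and phosphorylates TGFBR1. TGFBR1 then phosphorylates SMAD2 and SMAD3, which enter the nucleus with SMAD4 and regulate transcription, and SMAD7 and SKIL are induced by the pathway and restrain it. In tumours the pathway is known for restraining effector T cells, for favouring regulatory T cells and for driving fibroblasts to make matrix.

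The start regions of Tgfb1 and Tgfb2 are shown because these ligand genes differed in how they varied over the CTRL libraries: Tgfb1 stayed between 39.6 and 75.3 CPM (counts scaled to the library's total) and Tgfb2 ran from 0 to 96.3 CPM. Each line gives the 250 bases before the start, 5′ to 3′ on the gene's strand, from the RefSeq promoter table (GRCm38.p6). Tgfb1 is at chr7:25686752-25687001 on the plus strand and Tgfb2 at chr1:186705990-186706239 on the minus strand. Capitals mark matches on either strand to GGGCGG (the GC box), TATAA (the core of the TATA box), CACGTG (an E-box) and CAGAC (the core of the SMAD-binding element), none of which overlap here.
Tgfb1 upstream: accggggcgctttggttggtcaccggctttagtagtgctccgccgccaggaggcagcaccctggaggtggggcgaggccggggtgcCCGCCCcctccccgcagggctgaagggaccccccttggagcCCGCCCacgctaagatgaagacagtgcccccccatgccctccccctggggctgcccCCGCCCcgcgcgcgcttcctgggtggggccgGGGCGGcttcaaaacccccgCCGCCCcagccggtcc
Tgfb2 upstream: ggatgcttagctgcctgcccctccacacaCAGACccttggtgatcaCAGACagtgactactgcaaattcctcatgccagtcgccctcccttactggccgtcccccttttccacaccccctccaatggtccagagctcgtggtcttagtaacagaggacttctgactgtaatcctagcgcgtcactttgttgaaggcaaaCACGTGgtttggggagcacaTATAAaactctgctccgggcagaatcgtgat
The Tgfb1 window was 75.2% G and C and held GGGCGG 1 time on the gene's strand, 36 bases before the start, and 4 times on the opposite strand, with no match to the other motifs. The Tgfb2 window was 53.6% G and C. It held TATAA 31 bases before the start, CACGTG 51 bases before it and CAGAC 221 and 204 bases before it, with no GGGCGG. Of 32851 upstream windows of the same length in the table, 32.7% held GGGCGG on either strand, 22.8% TATAA, 6.0% CACGTG and 42.2% CAGAC, and the median G and C content was 52.4%. The windows of Tgfbr1 (74.8% G and C at the first of its listed starts), Tgfbr2 (58.4%) and Smad3 (69.2%) held no TATAA. Entries were found for 5 of the 9 members. A match describes the letters only.

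Libraries held 2005579 to 5176494 counts assigned to genes (2347983 to 5176494 in 4T1, 3431250 to 4495219 in CD4 and 2005579 to 3908523 in CD8). Levels are CPM over these counts, and levels of different genes are compared only per length, as CPM per kilobase of exon (RPKM). In bulk RNA, fewer cells of a type and less RNA per cell cannot be told apart. Of the 4T1 C269 group, libraries 9 and 10 were unlike every other library. Their summed intestinal goblet markers were at 6740 and 7684 CPM, against 5.017 to 25.55 CPM in 4T1 CTRL, and their epithelial markers at 5980 and 5782 CPM. Xist, the RNA of the inactive X chromosome, had 2 and 1 counts there, while Ddx3y, a Y-linked gene, was at 75.2 and 84.2 CPM. The main 4T1 results with C269 are therefore given with and without these 2 libraries. The label of the sorted 4T1 cells was checked against epithelial markers, whose sum was 234.8 to 606.5 CPM in 4T1 CTRL and 221.5 to 335.6 CPM in CD4 CTRL, so these ranges overlapped. Neutrophil markers summed to 4061 to 13770 CPM and fibroblast markers to 3274 to 54680 CPM in 4T1 CTRL. T cell markers summed to 1224 to 2770 CPM in CD4 CTRL, 4123 to 5302 CPM in CD8 CTRL and 60.71 to 424.6 CPM in 4T1 CTRL.

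**Figure D1:**
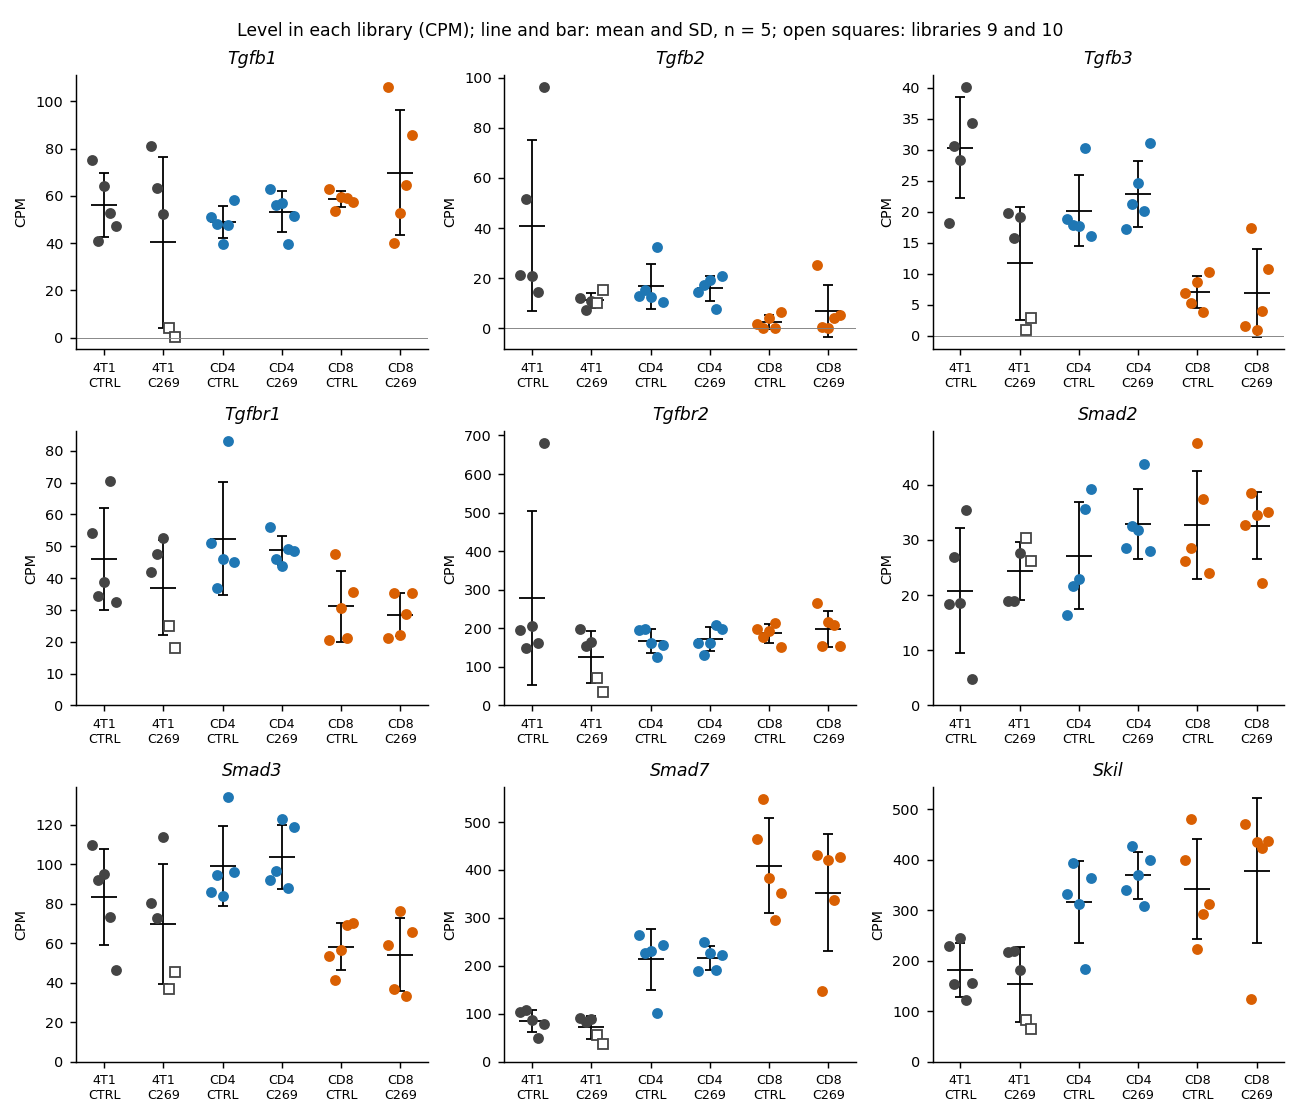
Level of each of the 9 genes in CPM (vertical axis, linear) in every library of the 6 groups (horizontal axis), with the mean and SD of 5 libraries as a line and bar. Smad7 steps up from 4T1 to CD4 to CD8, Tgfb2 and Tgfb3 are lowest in CD8, and libraries 9 and 10 (open squares) are the lowest 4T1 libraries for Tgfb1, Tgfb3, Tgfbr1, Tgfbr2, Smad3 and Skil.

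Among the CTRL groups, the inhibitor Smad7 differed in all 3 contrasts, and the ligands Tgfb2 and Tgfb3 were lower in CD8 than in either other population. Tgfb1, Tgfbr1, Tgfbr2, Smad2 and Smad3 did not pass the main edgeR test in any contrast, though Tgfbr1 and Smad3 passed in some alternatives given below. In CD8 against CD4, Tgfb2 (log2 fold change -2.64, SE 0.748, adjusted p = 0.0261) and Tgfb3 (-1.42, SE 0.294, adjusted p = 0.00344) were lower and Smad7 (1.01, SE 0.274, adjusted p = 0.0204) was higher in the edgeR quasi-likelihood test. That is 3 of 9 members called, which means an adjusted p under 0.05, where 12.6% of the 13201 genes tested were called. In 4T1 against CD4, 1 of 9 members was called, Smad7, which is near the background of 12.7%. In 4T1 against CD8, 4 of 9 were called (Tgfb2, Tgfb3, Smad7 and Skil), which is near the background of 40.6%. The counts in these 4T1 contrasts therefore do not set the members apart from genes at large. The 3 contrasts share their CTRL libraries, and all 9 members passed the filter on low counts in each.

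**Figure D2:**
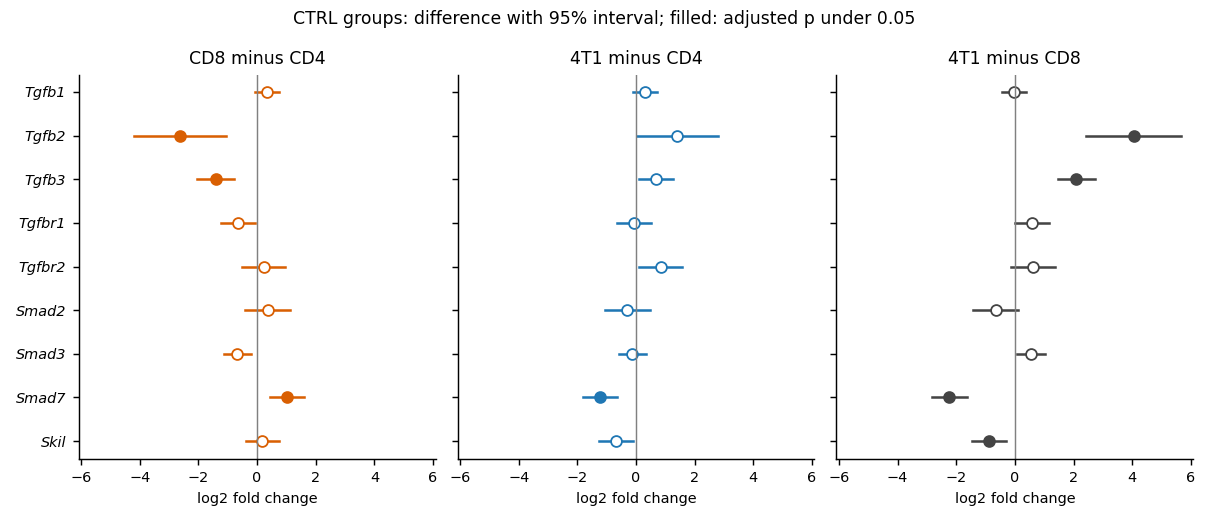
Difference between CTRL populations for each gene as a log2 fold change (horizontal axis) with its 95% interval, one panel per contrast; filled circles have an edgeR adjusted p under 0.05. Smad7 lies to the right of 0 in CD8 minus CD4 (1.01) and to the left in both 4T1 contrasts (-1.22 and -2.23).

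The ligand genes were read first. Tgfb1, which encodes the main TGF-beta isoform of immune cells and platelets, was at 75.3, 40.9, 64.1, 52.7 and 47.4 CPM in the 4T1 CTRL libraries. In CD4 CTRL it was at 51.2, 48.1, 39.6, 47.8 and 58.0 CPM, and in CD8 CTRL at 62.9, 53.8, 59.3, 59.3 and 57.2 CPM. The groups overlapped, the CD8 libraries lay closest together (58.5 ± 3.36 CPM, SD, n = 5), and no contrast passed the test. The log2 differences were 0.34 (95% interval -0.07 to 0.75) for CD8 minus CD4, 0.32 (-0.09 to 0.72) for 4T1 minus CD4 and -0.02 (-0.43 to 0.39) for 4T1 minus CD8.

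Tgfb2, an isoform best known from embryonic and mesenchymal tissue, was at 21.4, 51.5, 20.8, 14.6 and 96.3 CPM in 4T1 CTRL. In CD4 CTRL it was at 12.7, 15.3, 12.4, 32.5 and 10.4 CPM, and in CD8 CTRL at 1.79, 0, 4.19, 0 and 6.44 CPM. All 5 CD8 libraries were below all 10 others. Libraries 22 and 24 had 0 counts of Tgfb2, which at 3 counts allows up to 0.849 and 1.15 CPM, counting error only. The 5 CD8 CTRL libraries together held 39 counts of Tgfb2, so its level there rests on few reads. The 4T1 and CD8 groups differed by 4.05 (log2, SE 0.767, adjusted p = 0.000523 in edgeR). For 4T1 against CD4 the difference was 1.41 (SE 0.651, adjusted p = 0.169), falling to 0.78 without library 5, the highest 4T1 CTRL library. The call in CD8 against CD4 was lost without library 14, 21, 22 or 24 (edgeR adjusted p = 0.0745, 0.0674, 0.0537 and 0.0515).

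Tgfb3, the third isoform, known for its part in palate fusion, followed the same order. It was at 18.2, 30.7, 28.5, 40.1 and 34.3 CPM in 4T1 CTRL, at 18.8, 17.8, 17.8, 30.3 and 16.2 CPM in CD4 CTRL and at 6.91, 5.38, 8.68, 3.85 and 10.4 CPM in CD8 CTRL. The CD8 libraries lay below all others, and the 4T1 and CD4 ranges overlapped. The difference between 4T1 and CD8 was 2.10 (log2, SE 0.298, adjusted p = 3.94e-05 in edgeR) and that between 4T1 and CD4 was 0.69 (SE 0.279, adjusted p = 0.119). The call in CD8 against CD4 stood without each library in turn (edgeR adjusted p 0.00255 to 0.0131) and was lost when all 30 libraries shared 1 fit (adjusted p = 0.167), where Tgfb2 was lost as well (0.0602). Summed fibroblast markers, 9 genes, ran in the same order: 3274 to 54680 CPM in 4T1 CTRL, 624.4 to 6188 CPM in CD4 CTRL and 334.4 to 913.5 CPM in CD8 CTRL. Single libraries did not all follow this order. Library 5 had the highest sum (54680 CPM) and the highest Tgfb2 of 4T1 CTRL. In CD4 CTRL, library 14 had the lowest sum (624.4 CPM) and the highest Tgfb2 and Tgfb3. Library 11 had the highest CD4 CTRL sum (6188 CPM), with Tgfb2 at 12.7 CPM and Tgfb3 at 18.8 CPM. The part of fibroblasts in the ligand levels was not tested. Exons of Tgfb3 overlap those of Gm48008 over 257 bases. Gm48008 had 55 counts in the 30 libraries against 1869 for Tgfb3, and the strand setting of the counting is not given in the sources used here.

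Per length, Tgfb1 made up most of the ligand RNA in CD8 and less of it elsewhere. Its share of the summed RPKM of the 3 ligands was 82.7% ± 7.17 (SD, n = 5) in CD8 CTRL, 53.2% ± 8.90 in CD4 CTRL and 42.6% ± 14.8 in 4T1 CTRL. The CD8 range of 73.1% to 91.2% did not overlap the CD4 range of 39.4% to 63.7% or the 4T1 range of 26.02% to 62.2%. This is a description with no test. In C269 the mean share was 81.4% ± 13.7 in CD8 and 52.8% ± 6.40 in CD4. In 4T1 C269 it was 44.9% ± 28.5 (2.13% to 68.0%), and 64.3% ± 5.54 (SD, n = 3) without libraries 9 and 10.

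**Figure D3:**
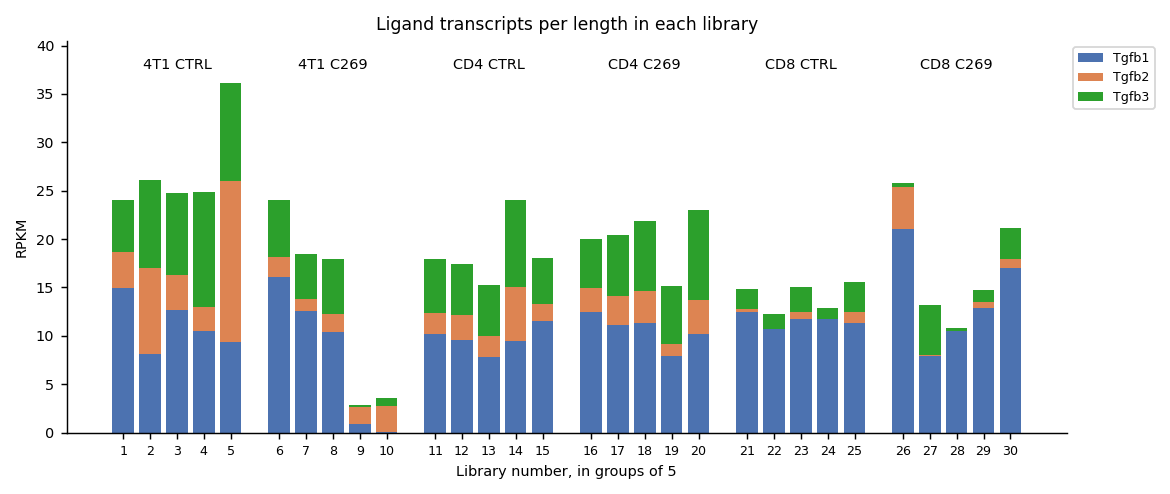
RPKM of Tgfb1, Tgfb2 and Tgfb3 (stacked bars, vertical axis from 0) in each of the 30 libraries, in groups of 5 along the horizontal axis. Bars of the CD8 libraries are mostly Tgfb1, library 5 has the tallest Tgfb2 segment, and libraries 9 and 10 have almost no Tgfb1.

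Of the receptor genes, Tgfbr2, whose product binds the ligand first, had the higher level per length in every group. It was at 34.0 ± 27.6 RPKM in 4T1 CTRL, 20.4 ± 3.72 in CD4 CTRL and 22.8 ± 2.90 in CD8 CTRL (SD, n = 5). Tgfbr1, the signalling partner, was at 7.05 ± 2.46, 8.02 ± 2.73 and 4.76 ± 1.72 RPKM in the same groups. In CPM, Tgfbr2 in 4T1 CTRL was at 195, 150, 205, 161 and 680 CPM, so library 5 alone was above 205 CPM. Library 5 also had the highest fibroblast marker sum (54680 CPM) and the lowest Smad2 (4.85 CPM) of all libraries. With it Tgfbr2 was 0.62 higher in 4T1 than in CD8 on the log2 scale (adjusted p = 0.169 in edgeR), and without it -0.04. Against CD4 the difference was 0.85 (adjusted p = 0.123) with and 0.19 without it. Tgfbr1 was at 20.5 to 47.5 CPM in CD8 CTRL and 36.8 to 83.0 CPM in CD4 CTRL, and 4 of 5 CD8 libraries were below every CD4 library. The log2 difference of Tgfbr1 was -0.65 (95% interval -1.24 to -0.06) with an edgeR adjusted p of 0.147. For 4T1 minus CD8 it was 0.58 (adjusted p = 0.108 in edgeR) and passed without library 22 (adjusted p = 0.0415).

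The SMADs that the receptor phosphorylates differed in level. Smad3 was at 15.01 ± 4.40 RPKM in 4T1 CTRL, 17.9 ± 3.67 in CD4 CTRL and 10.5 ± 2.14 in CD8 CTRL. Smad2 was at 2.37 ± 1.29, 3.09 ± 1.11 and 3.73 ± 1.11 RPKM. In all 3 CTRL groups Smad3 was thus the more abundant per length. Smad3 was at 53.7, 41.6, 56.3, 69.3 and 70.1 CPM in CD8 CTRL and at 85.8, 94.5, 84.1, 134 and 96.1 CPM in CD4 CTRL, with no overlap. The difference of -0.68 (SE 0.220) missed the threshold in edgeR (adjusted p = 0.0521) and passed it in DESeq2 (adjusted p = 0.0336). In edgeR it passed without library 1, 5 or 25 (adjusted p = 0.0420, 0.0162 and 0.0493). For 4T1 against CD8 the Smad3 difference was 0.55 (adjusted p = 0.0557 in edgeR and 0.0404 in DESeq2). This passed in edgeR without library 4, 5 or 25 (adjusted p = 0.0439, 0.00864 and 0.0491). For Smad2 the log2 differences were 0.36 (95% interval -0.40 to 1.116) for CD8 minus CD4 and -0.66 (-1.42 to 0.11) for 4T1 minus CD8.

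Smad7, which blocks the receptor and recruits ubiquitin ligases to it, gave the clearest order. In 4T1 CTRL it was at 104, 107, 87.6, 49.9 and 79.3 CPM. In CD4 CTRL it was at 265, 226, 232, 101 and 243 CPM, and in CD8 CTRL at 465.6, 548, 384, 296 and 352 CPM. Every CD8 library was above every CD4 library, and 4 of 5 CD4 libraries were above every 4T1 library, library 14 being the exception. Means were 409 ± 99.0, 213 ± 64.6 and 85.6 ± 23.03 CPM (SD, n = 5) in CD8, CD4 and 4T1. The 4T1 level was lower than CD4 by a log2 difference of -1.22 (SE 0.277, adjusted p = 0.00814 in edgeR) and lower than CD8 by -2.23 (SE 0.285, adjusted p = 1.56e-05). The CD8 against CD4 call was lost without library 21 or 22 (edgeR adjusted p = 0.0531 and 0.0652). Both 4T1 calls stood without each library in turn.

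Skil, whose product SnoN represses SMAD-bound genes, was at 229, 155, 245, 122 and 156 CPM in 4T1 CTRL. It was at 332, 393, 312, 183 and 363 CPM in CD4 CTRL and at 400, 480, 223, 292 and 313 CPM in CD8 CTRL. The CD4 and CD8 ranges overlapped, and 3 of 5 4T1 libraries were below every CD8 library. Skil was lower in 4T1 than in CD8 by a log2 difference of -0.87 (SE 0.273, adjusted p = 0.0172 in edgeR), a call that was lost without library 22 (adjusted p = 0.0555). Against CD4 the difference was -0.69 (adjusted p = 0.108) and passed without library 14 (adjusted p = 0.0345) or library 3 (adjusted p = 0.0496).

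Library 14, a CD4 CTRL library, moved several of these values. It had the highest Tgfb2, Tgfb3, Tgfbr1 and Smad3 of the CD4 CTRL libraries and the lowest Smad7, Skil and Tgfbr2. Its T cell markers summed to 1224 CPM, the lowest of the T cell libraries, and its macrophage and monocyte markers to 5295 CPM, against 828.2 to 3025 CPM in the other T cell libraries. Its fibroblast markers summed to 624.4 CPM, the lowest of the CD4 CTRL libraries. The part of any of these cells in its levels was not tested. Without it, Smad7 was 0.82 higher in CD8 than in CD4 on the log2 scale, against 1.01 with it.

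The rest of the pathway was described from 6 lists of genes. These lists were chosen with earlier results of these data known, so their counts and medians are no test of the lists. Higher or lower here means called, and the shares of all genes called were those above: 12.6% in CD8 against CD4, 12.7% in 4T1 against CD4 and 40.6% in 4T1 against CD8. Of the 13 tested genes for latency and activation of the ligand, 6 were called lower in CD8 than in CD4 and 0 higher. Whether called or not, 2 of the 13 had a positive value, and the median log2 difference was -1.53 beside 0.00 over all genes tested. They included the latent TGF-beta binding protein genes Ltbp3 (-2.09, SE 0.288), Ltbp1 (-2.83, SE 0.391) and Ltbp2 (-3.53, SE 0.520). Against CD8, 9 of the 13 were higher in 4T1 (median 3.16 beside 0.01), with Ltbp1 at 84.0 ± 23.6 CPM in 4T1 and 7.40 ± 3.93 CPM in CD8. Against CD4, 4 were higher in 4T1, among them Bgn (3.18) and Thbs1 (1.47), whose product thrombospondin-1 activates latent TGF-beta, and 1 was lower. That gene was Itgb8 (-3.36, SE 0.778), the beta chain of an integrin that releases active TGF-beta and marks activated regulatory T cells. It was at 13.2 ± 5.43 CPM in CD4 and 1.08 ± 0.937 CPM in 4T1.

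Among co-receptors and receptor regulators, 3 of 9 were lower in CD8 than in CD4: Zfyve9 (-2.55), which presents SMADs to the receptor, and the co-receptor genes Eng (-1.88) and Tgfbr3 (-1.50). Against CD8, 4 of 9 were called higher in 4T1 and 2 lower (median 0.40 beside 0.01), where 40.6% of all genes were called. Against CD4, 0 of 9 were called, where 12.7% of all genes were. In the latter the smallest p was that of Acvrl1 (1.78, SE 0.579, edgeR adjusted p = 0.0524). For the other SMADs and SMAD regulators, 0 of 12 tested genes were called in CD8 against CD4 or in 4T1 against CD4. Of these 12, 1 was higher (Nedd4l, 0.88) and 2 lower (Tgif2, -1.07, and Smurf2, -0.53) in 4T1 than in CD8, a smaller share than the 40.6% of all genes. By sign, 4 of the 12 were positive. In the activin and BMP branch, 5 of 13 tested genes were lower in CD8 than in CD4, led by the BMP receptor genes Bmpr2 (-1.51) and Bmpr1a (-2.36). Against CD8, 10 of the 13 were higher in 4T1 and 0 lower (median 2.52 beside 0.01), where 40.6% of all genes were called. Against CD4, 2 of the 13 were higher in 4T1 and 0 lower (median 0.74 beside 0.00), near the 12.7% of all genes. Inhba, the activin A subunit, was higher in 4T1 (205 ± 91.7 CPM) than in CD4 (52.3 ± 10.1 CPM) by 2.06 and than in CD8 (30.1 ± 17.5 CPM) by 2.77, SD and n = 5 for each.

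A list of genes chosen as induced through SMAD3 in many cell types showed a like contrast. Whether SMAD3 induces any of them in these cells, the Id genes included, was not tested. Of 21 tested, 1 was higher (Id2, 0.72) and 6 lower in CD8 than in CD4, among them Snai1 (-2.25, SE 0.218) and Id3 (-1.13). In 4T1, 15 were higher and 4 lower than in CD8 (median 2.57 beside 0.01), and 9 were higher and 2 lower than in CD4 (median 1.18 beside 0.00). Snai1, a repressor of E-cadherin, was at 55.3 ± 12.6 CPM in 4T1, 56.6 ± 8.72 in CD4 and 11.2 ± 2.94 in CD8. Several of the list's genes encode fibroblast matrix, such as Fn1 and Col1a1. The fibroblast marker sums given above are not independent of collagen genes such as Col1a1, and the part of fibroblasts in this contrast was not tested. The list of TGF-beta responsive genes of T cells includes lineage genes of the sorted cells. Foxp3, which defines regulatory T cells, was at 95.2 ± 18.4 CPM in CD4 and 2.92 ± 3.103 CPM in CD8, and Eomes, a factor of cytotoxic cells, at 6.48 ± 4.73 and 144 ± 29.6 CPM. Of 17 tested, 6 were higher and 3 lower in CD8 than in CD4, 0 were higher and 8 lower in 4T1 than in CD4, and 1 was higher and 11 lower in 4T1 than in CD8.

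C269 was then compared with CTRL within each population. No member passed the edgeR test in any of them: 0 of 9 in 4T1 (1 at an unadjusted p under 0.05), 0 of 9 in CD4 (0 unadjusted) and 0 of 9 in CD8 (0 unadjusted). Over all genes tested, 12.1%, 5.62% and 6.63% had an unadjusted p under 0.05, so 1 of 9 in 4T1 is near the background. The share of all genes called was 0% of 12875 in 4T1, 0% of 12393 in CD4 and 0.00914% of 10943 in CD8. DESeq2 called 1 member in 4T1, where it called 2.38% of genes, and 0 in CD4 and CD8. Without libraries 9 and 10, edgeR called 0% of 13750 genes in 4T1 (5.46% unadjusted) and 0 of 9 members (1 unadjusted), and DESeq2 called 0.611% of them and 0 of 9 members.

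**Figure D4:**
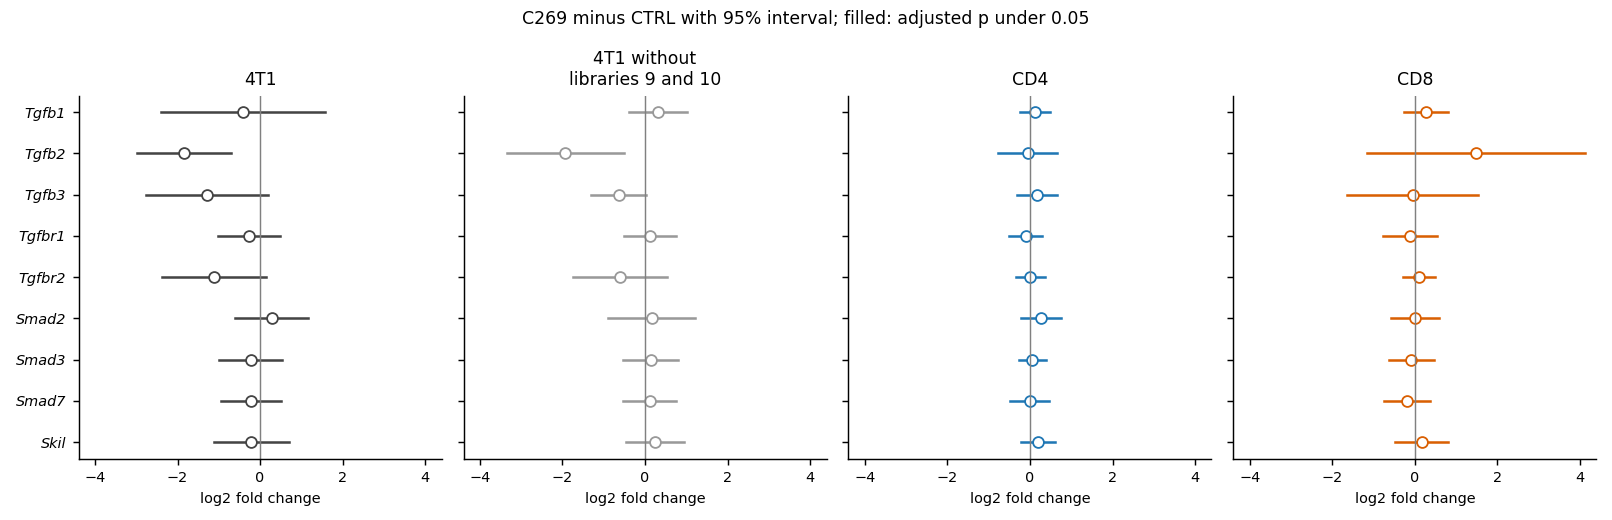
Log2 fold change of C269 minus CTRL (horizontal axis) with its 95% interval for each gene in 4T1, in 4T1 without libraries 9 and 10, in CD4 and in CD8; open circles did not reach an edgeR adjusted p under 0.05. In 4T1 the Tgfb2 interval lies below 0 with (-2.99 to -0.70) and without (-3.34 to -0.52) the 2 libraries, and the CD4 intervals are the narrowest.

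The single member with an unadjusted p under 0.05 was Tgfb2 in 4T1. It was at 11.96, 7.17, 11.02, 10.1 and 15.5 CPM in the 4T1 C269 libraries, against 21.4, 51.5, 20.8, 14.6 and 96.3 CPM in CTRL. In 4 of 5 C269 libraries it was below every CTRL library, and library 10 overlapped the lowest CTRL library. For this gene library 9 lay inside the range of libraries 6 to 8 and library 10 was the highest of the group. The log2 fold change was -1.84 (SE 0.521, adjusted p = 0.355 in edgeR) with all 10 libraries and -1.93 (SE 0.637, adjusted p = 0.809) without libraries 9 and 10. DESeq2 gave -1.87 with an adjusted p of 0.0366, and without libraries 9 and 10 an adjusted p of 0.13. The authors' deposited table, which has the opposite sign because it gives CTRL over C269, lists 1.76 with an adjusted p of 0.0285, in a comparison where it calls 4.5% of genes. Without library 5 the edgeR value moved to -1.23. Fibroblast markers summed to 3274 to 54680 CPM in 4T1 CTRL and to 1115 to 14820 CPM in 4T1 C269, and neutrophil markers to 4061 to 13770 and 368.9 to 12810 CPM. Epithelial markers summed to 234.8 to 606.5 CPM in 4T1 CTRL and 395.0 to 5980 CPM in 4T1 C269, with library 8 at 1701 CPM. Erythroid markers summed to 181.6 to 26840 CPM in 4T1 CTRL and 81.91 to 38130 CPM in 4T1 C269. Platelet and megakaryocyte markers, 6 genes, summed to 49.18 to 765.8 CPM (median 449.3) in 4T1 CTRL and to 17.58 to 102.2 CPM (median 50.21) in 4T1 C269. In CTRL they were highest in libraries 2 (765.8 CPM) and 5 (455.4 CPM), which also had the highest Tgfb2, and at 449.3 CPM in library 4, which had the lowest. Most of the sum in these libraries was the single gene Pf4, at 716.4, 414.2 and 440.5 CPM in libraries 2, 5 and 4. Ppbp, another of the markers, was at 47.3, 30.1 and 5.52 CPM there. Of these markers, Gp9 was at 0 in every 4T1 library and Gp1bb in every 4T1 CTRL library. Library 4 had the highest macrophage and monocyte marker sum of all libraries (10120 CPM). The part of any of these cell types in the Tgfb2 value was not tested.

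For most other members the 4T1 value turned on libraries 9 and 10. Tgfb1 was at 81.3, 63.1 and 52.4 CPM in libraries 6 to 8 and at 4.27 and 0.386 CPM in libraries 9 and 10, where it had 19 and 2 counts. The log2 fold change of Tgfb1 was -0.40 (SE 0.904) with them and 0.31 (SE 0.314) without them. Tgfbr1, Smad3, Smad7 and Skil changed sign in the same way, from -0.27, -0.23, -0.22 and -0.21 with them to 0.11, 0.14, 0.12 and 0.24 without them. Tgfb3 was at 19.9, 15.8, 19.1, 0.898 and 2.90 CPM in C269, and its fold change was -1.29 (95% interval -2.77 to 0.19) with and -0.63 (-1.30 to 0.03) without the 2 libraries. Tgfbr2 was at 198, 154, 165, 72.1 and 35.9 CPM in C269, with -1.11 (-2.37 to 0.15) and -0.61 (-1.76 to 0.53), and its value moved to -0.47 without library 5. Smad2 was at 0.28 (-0.60 to 1.16) and 0.16 (-0.90 to 1.22). All these had edgeR adjusted p of 0.457 or more.

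In CD4 the intervals were narrow. Tgfb1 was at 62.7, 55.9, 57.0, 39.7 and 51.3 CPM in C269, 1 library above every CTRL library, and its log2 fold change was 0.12 (95% interval -0.25 to 0.48). Skil was at 340, 427, 369, 307 and 400 CPM in C269, with 2 libraries above every CTRL library and a fold change of 0.20 (-0.22 to 0.62). Smad7 was at 190, 250, 226, 191 and 223 CPM, all inside the CTRL range, with -0.01 (-0.48 to 0.46). For Tgfb2, Tgfb3, Tgfbr1, Tgfbr2, Smad2 and Smad3 the fold changes were -0.06, 0.18, -0.11, 0.01, 0.27 and 0.06. The widest CD4 interval was that of Tgfb2, -0.77 to 0.66, and edgeR adjusted p was 0.920 or more for all 9.

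In CD8 the C269 libraries spread more than the CTRL libraries for the ligands. Tgfb1 was at 106, 39.9, 52.9, 64.7 and 85.8 CPM in C269, 3 libraries above and 2 below all CTRL libraries, with a log2 fold change of 0.27 (95% interval -0.25 to 0.79). Tgfb2 was at 25.1, 0.499, 0, 3.95 and 5.22 CPM, library 26 alone lying above the CTRL range, and its fold change of 1.47 (-1.16 to 4.11) became -0.04 without library 26. Tgfb3 was at 1.52, 17.5, 0.918, 3.95 and 10.8 CPM, 2 above and 2 below all CTRL libraries, with -0.05 (-1.64 to 1.53). The 5 CD8 C269 libraries together held 89 counts of Tgfb2 and 79 of Tgfb3. For the receptors, Tgfbr2 was at 154 to 265 CPM and Tgfbr1 at 21.3 to 35.4 CPM in C269, with 0.11 (-0.28 to 0.49) and -0.12 (-0.78 to 0.53).

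Smad7 was at 431, 147, 421, 338 and 428 CPM and Skil at 471, 124, 435, 423 and 437 CPM in CD8 C269. Library 27 was the lowest for both, and the other 4 libraries lay inside the CTRL ranges. The log2 fold change was -0.20 (95% interval -0.76 to 0.36) for Smad7 and 0.16 (-0.48 to 0.80) for Skil. Without library 27 these became -0.01 and 0.38. Library 27 had epithelial markers at 572.9 CPM, the highest CD8 value, and T cell markers at 5326 CPM. It also had the fewest gene counts (2005579), the fewest genes detected (12208) and the largest ribosomal RNA share (7.95%) of the 30 libraries, and the part of these in its levels was not tested. Smad2 and Smad3 were at 0.00 (-0.57 to 0.57) and -0.09 (-0.63 to 0.46), and edgeR adjusted p was 0.855 or more for all 9 members.

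The difference of the C269 effect between populations was tested in 1 fit of all 30 libraries. For CD8 minus CD4, 0 of 9 members were called (0 unadjusted, 0 by DESeq2), where the background was 0%. For 4T1 minus CD4 and 4T1 minus CD8, 0 of 9 were called as well (1 and 2 unadjusted, 0 by DESeq2), each with a background of 0.00679%. Over all genes, 9.41% and 16.3% had an unadjusted p under 0.05 in these 2 contrasts, and without libraries 9 and 10 the unadjusted member counts were 0 and 1. The smallest p was that of Tgfb2 in 4T1 minus CD8, with a difference of -3.24 (SE 1.16, adjusted p = 0.167 in edgeR) that became -3.36 (adjusted p = 0.346) without libraries 9 and 10 and -1.71 without library 26. Tgfbr2 differed by -1.07 (adjusted p = 0.523 in edgeR) for 4T1 minus CD4 and by -1.14 (adjusted p = 0.272) for 4T1 minus CD8. Without library 5 these were -0.43 and -0.50, and without libraries 9 and 10 they were -0.58 and -0.65. These contrasts share the libraries of the populations they have in common.

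No gene of the 6 pathway lists passed the edgeR test for C269: 0 of 87 tested in 4T1 (15 at an unadjusted p under 0.05), 0 of 86 in CD4 (13) and 0 of 73 in CD8 (12). Without libraries 9 and 10 the count in 4T1 was 0 of 87 (1 unadjusted). Over all genes tested, 12.1% in 4T1, 5.62% in CD4 and 6.63% in CD8 had an unadjusted edgeR p under 0.05. In 4T1 without libraries 9 and 10 it was 5.46%. The lists were chosen with earlier results of these data known, so their unadjusted counts are no test of the lists. DESeq2 called 0 in CD4 and CD8 and 2 in 4T1, Tagln and Acta2, both genes of smooth muscle and myofibroblasts, and 0 in 4T1 without libraries 9 and 10. The genes with the smallest p of each list are given as values. In CD4 they were Lrrc32, which holds latent TGF-beta on regulatory T cells (0.65, SE 0.224), Tgfbr3 (-0.29, SE 0.158), Pmepa1, a TGF-beta-induced inhibitor of the pathway (0.37, SE 0.147), Inhba (0.86, SE 0.259), Zeb2 (0.53, SE 0.223) and the granzyme gene Gzmb (1.03, SE 0.326). Their edgeR adjusted p ran from 0.743 to 0.899. In CD8 they were Thbs1 (1.17, SE 0.392), Zfyve9 (1.21, SE 0.606), Pmepa1 (0.53, SE 0.180), Inhba (1.39, SE 0.491), Col3a1 (2.18, SE 0.742) and Gzmb (0.80, SE 0.384), with edgeR adjusted p from 0.739 to 0.744. Fibroblast markers summed to 182.0 to 7822 CPM (median 1117) in CD8 C269, highest in library 29, and to 334.4 to 913.5 CPM (median 647.1) in CD8 CTRL. These sums are not independent of collagen genes such as Col3a1, and the part of fibroblasts in these values was not tested.

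In 4T1 the lead genes also turned on libraries 9 and 10. Acta2, smooth muscle actin, had a log2 fold change of 3.74 (SE 1.07) with them and 0.25 without them, being at 539 and 581 CPM there and at 19.3 ± 6.05 CPM (SD, n = 3) in the other C269 libraries. Bmp4 went from 4.15 to -0.54 and Nedd4l, a SMAD ubiquitin ligase, from 1.41 to 0.32. Ltbp4 (-0.97), Acvrl1 (-1.30) and Runx1 (-0.67) kept their sign, at -0.62, -0.99 and -0.33. The edgeR adjusted p of these 6 genes was 0.355 to 0.444 with the 2 libraries and 0.884 to 0.970 without them. The list medians in 4T1 ran from -0.93 (latency, 0 of 12 genes positive) to 0.82 (TGF-beta responsive genes of T cells, 13 of 16 positive), beside 0.04 over all genes. Without the 2 libraries these lists were at -0.40 (1 of 12) and 1.13 (13 of 16), beside 0.00. The T cell list holds genes of regulatory T cells, such as Foxp3, and of cytotoxic cells, such as Eomes and Gzmb. Its median therefore gives no direction of the pathway. T cell markers summed to 60.71 to 424.6 CPM in 4T1 CTRL. They summed to 515.1, 352.9 and 464.0 CPM in libraries 6 to 8 and to 128.4 and 122.9 CPM in libraries 9 and 10. The part of T cells in these medians was not tested. The latency list was at 0.40 (9 of 13 positive) in CD4 and 0.91 (8 of 10) in CD8, and the T cell list at 0.36 (14 of 18) and 0.12 (8 of 14), beside 0.01 or less over all genes.

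The genes most like each member were found from deviations of log2 CPM from the group mean over the 28 libraries other than 9 and 10, among 11435 genes at a mean of 5 CPM or more. These are descriptions, since the libraries share depth and cell mixture. Smad7 was most like Akap13 (r = 0.92), then Skil (0.86) and Ldlrad4 (0.86), whose product inhibits SMAD signalling. Skil was most like the histone demethylase gene Kdm6b (0.90), Zranb1 (0.89) and the cold-inducible RNA-binding protein gene Cirbp (0.89). Tgfbr2 was most like Pmepa1 (0.81), and Tgfb3 most like Tead1 (0.85), Nupr1 (0.84) and Ankrd1 (0.84). For Tgfb2 the gene was Il34 (0.82), for Smad2 Cops6 (0.85), for Smad3 Eif3a (0.80), for Tgfb1 Zfp52 (0.76) and for Tgfbr1 Taf1 (0.67).

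Smad7 and Skil were the closest pair of members. Their deviations had r = 0.86 and Spearman's rho = 0.76 over the 28 libraries, r = 0.93 in the 10 CD8 libraries, 0.92 in the 10 CD4 libraries and 0.62 in 8 4T1 libraries. Without libraries 14 and 27, the 2 farthest from the median of Smad7, r was 0.71 over 26. The receptor genes Tgfbr1 and Tgfbr2 had r = -0.51 over 28 libraries and -0.52 without libraries 14 and 22. Smad2 and Tgfbr2 had r = -0.72, which rested on libraries 4 and 5: without them r was -0.33. Tgfb2 and Tgfb3 had r = 0.80 in the 10 CD4 libraries and r = 0.21 over all 28.

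**Figure D5:**
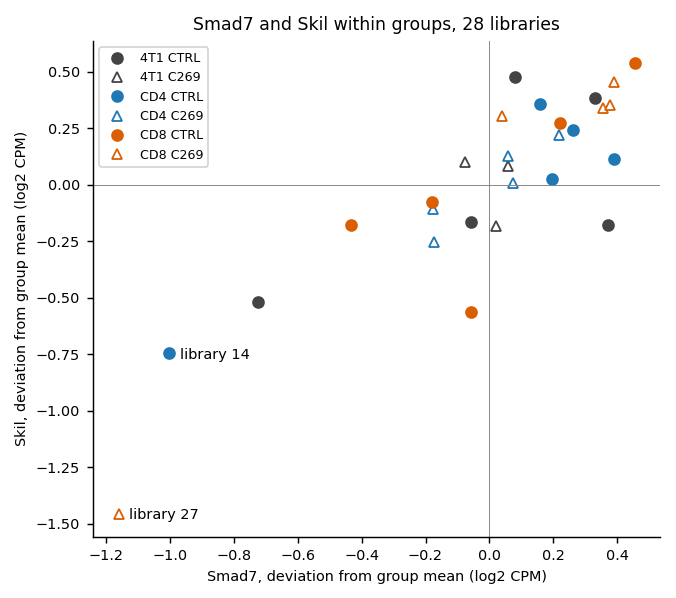
Deviation of log2 CPM from the group mean for Smad7 (horizontal axis) and Skil (vertical axis), 1 point per library, 28 libraries, coloured by population, filled for CTRL and open for C269. Points run from lower left to upper right (r = 0.86), with libraries 14 and 27 farthest out; without those 2, r is 0.71.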

How the data were processed

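Per the submitters' processing notes, reads were checked with FastQC, counted with featureCounts and compared with DESeq2, and mm9 is named. No version or aligner is given. The deposited tables hold raw counts per gene, a log2 fold change and an adjusted p-value. The condition columns equal sums of 5 library columns, which gave each library its group. Gene starts equal those of GENCODE M21 (GRCm38) for 99.61% of identifiers found there.

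The 7 ribosomal RNA features were left out (0.579% to 7.95% of counts). Counts of the 55401 genes were tested with edgeR 4.0.16 in R 4.3.3 (filterByExpr, TMM, quasi-likelihood test, Benjamini-Hochberg adjustment over all tested genes, threshold 0.05). C269 was compared within the 2 groups of a population, CTRL populations in a fit of 15 CTRL libraries and effect differences in a fit of 30. The tests were also run on simulated data with 200 changed genes, drawn from those above a minimum level. No library was simulated as unlike its group, and the recovery is not reported here. The run therefore says little about genes at low counts or about 4T1 C269. Fold changes, SE and intervals are on the log2 scale. RPKM uses the union of GENCODE exons. Alternatives were DESeq2 1.42.0, RLE factors, no filter, all libraries in 1 fit, and libraries left out.

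The members and lists were chosen with earlier results of these data known. All members are named, and of each list up to 3 called genes by smallest p, or the single gene with the smallest p where none was called.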

Additional observations from a re-analysis of the deposited data

Results flagged for a closer look

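Within groups of 5 libraries, the gap between the outermost library and its neighbour exceeded Dixon's critical share of the range (0.71) in 7 of 54 combinations of member and group, where chance gives about 1 in 20. Library 14, a CD4 CTRL library, stood apart for 4 members. It was highest for Tgfb2 (32.5 CPM, others 10.4 to 15.3), Tgfb3 (30.3 CPM, others 16.2 to 18.8) and Smad3 (134 CPM, others 84.1 to 96.1), and lowest for Smad7 (101 CPM, others 226 to 265). Library 5, a 4T1 CTRL library, was highest for Tgfbr2 (680 CPM, others 150 to 205). In CD8 C269, library 26 was highest for Tgfb2 (25.1 CPM, others 0 to 5.22) and library 27 lowest for Skil (124 CPM, others 423 to 471).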

How the results depend on the processing

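No paired analysis was possible because the library columns carry numbers and the sample titles letters, and nothing ties them. Depth limits Tgfb2 and Tgfb3 in CD8, which rest on 39 to 114 counts a group. A p that misses the threshold does not show that levels were alike. Every 4T1 value with C269 rests on 3 or 5 treated libraries.

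DESeq2 called 307 genes in 4T1, 13 in CD4 and 13 in CD8 for C269, where edgeR called 0, 0 and 1, and 84 in 4T1 without libraries 9 and 10, a setting chosen after seeing the data. It called 2, 50 and 453 genes for the effect differences CD8 minus CD4, 4T1 minus CD4 and 4T1 minus CD8, where edgeR called 0, 1 and 1. Of the members it called 1 for C269 in 4T1, where edgeR called 0. With no filter on low counts, edgeR called 83 genes in CD4 and 162 in CD8 for C269, and 6 and 58 for 4T1 minus CD4 and 4T1 minus CD8. With all 30 libraries in 1 fit it called 606 genes in 4T1 and 0 in CD8 for C269, 1032 (1 member) in CD8 against CD4 and 868 in 4T1 against CD4. Without libraries 9 and 10 it called 0 for 4T1 minus CD4. RLE factors left every count of genes and members within 1.5 times. With them Smad3 in 4T1 against CD8 passed the threshold (0.56, edgeR adjusted p = 0.0472).

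Without libraries 9 and 10 the C269 fold change in 4T1 changed sign for Tgfb1 (0.31, and 0.28 in DESeq2), Tgfbr1 (0.11 and 0.085), Smad3 (0.14 and 0.12), Smad7 (0.12 and 0.086) and Skil (0.24 and 0.22). Smad2 in CD8 changed sign with no filter (-0.037) and in 1 fit (-0.028). None of these was called under either setting.

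Leaving out each library in turn gave 0 to 10 called genes for C269 in CD4 and 0 to 1 in CD8. It gave 998 to 1938 genes and 1 to 2 members for 4T1 against CD4, and 1 to 4 members for CD8 against CD4. The effect differences had 0 to 1 (CD8 minus CD4), 0 to 16 (4T1 minus CD4) and 1 to 220 genes (4T1 minus CD8). For C269 in CD4 the sign changed for Tgfb2 (-0.19 to 0.28), Tgfbr1 (-0.20 to 0.081), Tgfbr2 (-0.095 to 0.094), Smad3 (-0.019 to 0.16) and Smad7 (-0.20 to 0.082). In CD8 it changed for Tgfb2 (-0.038 to 2.18), Tgfb3 (-0.71 to 0.23), Tgfbr1 (-0.255 to 0.081), Tgfbr2 (-0.019 to 0.19), Smad2 (-0.086 to 0.17) and Smad3 (-0.25 to 0.036). Among CTRL groups it changed for Tgfbr1 (-0.23 to 0.11) and Smad3 (-0.28 to 0.014) in 4T1 against CD4, and for Tgfb1 (-0.18 to 0.093) and Tgfbr2 (-0.042 to 0.79) in 4T1 against CD8. For the difference of the C269 effect, CD8 minus CD4, it changed for Tgfb2 (-0.011 to 2.21) and Tgfbr2 (-0.055 to 0.18). The cause of these shifts was not tested. Over all 30 libraries the likeness of Tgfb3 and Tead1 fell to 0.36, that of Tgfbr1 and Taf1 to 0.28 and that of Tgfbr2 and Pmepa1 to 0.55, and the other pairs moved by under 0.1.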
